A study of Homo sapiens with 4 samples.

Results

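Neuroendocrine cells of the prostate store peptide hormones and granins in dense-core vesicles, and some advanced prostate cancers take on their features. The transcripts examined here are 9 that pathologists and cell biologists use to recognise or explain that state, out of 18417 genes measured. NCAM1, ENO2, UCHL1, CHGA, CHGB, SYP and SCG2 mark neuroendocrine cells, while INSM1 and REST encode transcription factors that control such markers. The genes were chosen by symbol, and each was measured by 1 probe set, a group of array probes read as 1 signal.

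The RNA came from cells labelled PC3, a human line from a bone metastasis of prostate cancer that lacks androgen receptor signalling. Cells named PC3-PDEF in the labels over-expressed PDEF (SPDEF), an ETS transcription factor of luminal prostate cells, and cells named PC3-SCR were the controls. The labels call the control a control vector and the protocol names empty pBABE, although the letters SCR are not explained. Both groups had the same serum-containing medium, both were described as stably transfected, and no source used here says whether a group was 1 clone or a pool, or whether its 2 arrays came from separate cultures. The p-values below thus rest on array-to-array spread alone, and that spread may be technical.

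Signals are given on the log2 scale, as deposited, so a difference of 1 is a 2-fold change. No detection calls were used, and background was gauged from 341 olfactory receptor genes, whose transcription is largely limited to the nose. The highest of them reached 5.65 and 5.75 in the PC3-PDEF arrays, and 5.94 and 6.01 in the PC3-SCR arrays, and a gene is called above background here when it exceeded that value in the same array. Probe sets differ in how brightly they read, so this gauge is approximate. In these bulk samples fewer cells of a type and less RNA per cell cannot be told apart.

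Facts of the whole comparison bear on every result below. The targeted gene, SPDEF, had signals of 6.85 and 6.73 in PC3-PDEF against 5.99 and 6.06 in PC3-SCR (log2 fold change 0.77, adjusted p = 0.000563). Its PC3-SCR signals were close to the background gauge of the same arrays, 5.94 and 6.01. CTNNA1 and STAT3, known from other work to be deleted in PC3, were above background in both PC3-PDEF arrays (9.76 and 9.86 for CTNNA1, 9.06 and 9.05 for STAT3) and in neither PC3-SCR array (4.77 and 4.07, and 4.51 and 4.70). PDEF and this difference separate the same arrays and cannot be told apart. Whether both groups were the same cell line was not tested. Below, a rise or fall means only a higher or lower signal in PC3-PDEF than in PC3-SCR. Of 10 prostate luminal genes 6 were measured, and KRT8, KRT18 and HOXB13 were above background in all arrays while KLK2, KLK3 and ACP3 were in none. KRT8 was lower and ACP3 higher in PC3-PDEF, and the summed log2 signal of the 6 was 38.83 in both PC3-PDEF arrays and 39.66 to 39.68 in the PC3-SCR arrays. Of 10 genes of the kidney lineage 8 were measured, of which EYA1, SALL1 and WT1 were higher and PAX8 and OSR1 lower in PC3-PDEF, with summed log2 signals of 49.70 to 50.11 against 47.00 to 47.25. PAX2 and OSR1 were above background in no array, and LHX1 in 1 of the PC3-PDEF arrays. Of 10 genes of sympathetic neurons and neuroblasts 9 were measured, of which GATA3 and ISL1 were higher and TH lower in PC3-PDEF. The 9 had summed log2 signals of 46.39 to 46.52 against 44.57 to 45.38. GATA3 had the largest difference of the 9, with 7.45 and 7.30 in PC3-PDEF against 5.74 and 5.41 in PC3-SCR. HAND2, DBH, STMN2, ELAVL4 and PHOX2A were above background in no array, and PRPH in 1 of the PC3-PDEF arrays. At a limma adjusted p under 0.05, 33.3% of the measured luminal genes, 62.5% of the kidney genes and 33.3% of the sympathetic genes differed. Over all genes 50.7% did, 26.7% higher and 24.0% lower in PC3-PDEF. The median log2 fold changes of these lists, in that order, were -0.135, 0.218 and -0.10, beside -0.05 over all genes. The part of the differences named here in the results below was not tested.

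The neuroendocrine genes did not move as 1 group. UCHL1 and NCAM1 were far higher in PC3-PDEF than in PC3-SCR cells, ENO2 was lower, and the granins and INSM1 showed no change that passed the test. In limma, with p-values adjusted over all genes and called under 0.05, 4 of the 9 genes rose, 1 fell and 4 did not pass. Across all genes 50.7% were called, 26.7% higher and 24.0% lower in PC3-PDEF, so the 55.6% of these genes that changed is near the share in the whole table. In 6 of the 9 both PC3-PDEF signals lay on one side of both PC3-SCR signals, as was so for 74.7% of all genes. Whichever array was left out, fewer of the 9 were called, and fewer of all genes were too. The median log2 fold change of the 9 was 0.03, beside -0.05 over all genes.

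**Figure D1:**
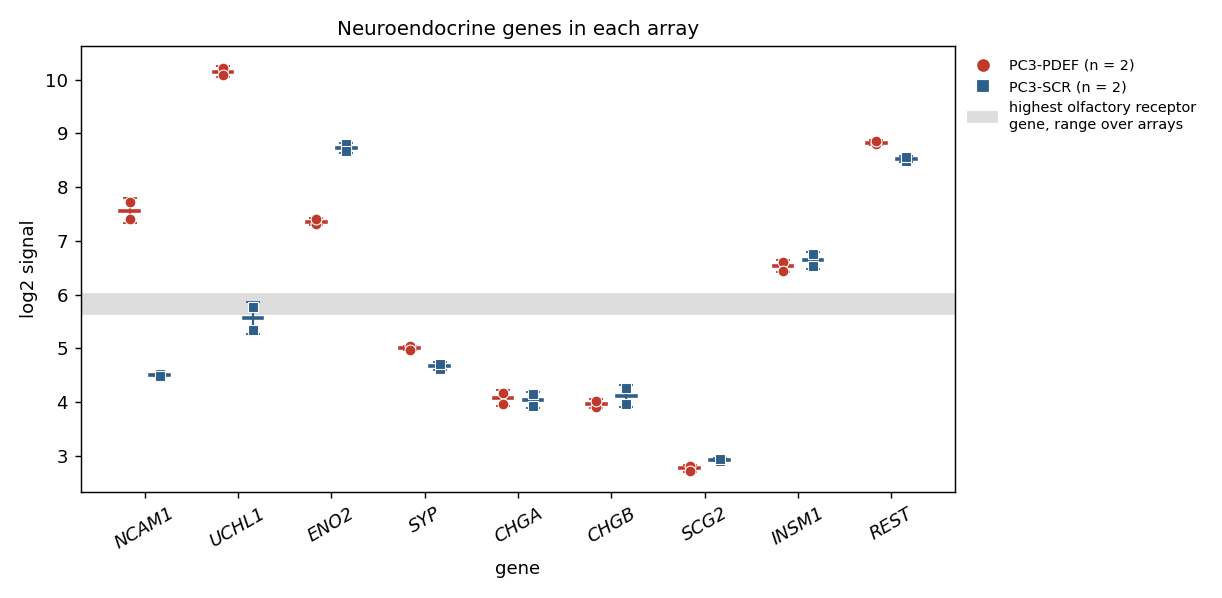
Log2 signal (vertical axis) of the 9 neuroendocrine genes (horizontal axis) in the PC3-PDEF arrays (circles) and the PC3-SCR arrays (squares), where lines mark group means and bars the SD (n = 2). The grey band is the highest olfactory receptor gene over the arrays, from 5.65 to 6.01. UCHL1 and NCAM1 lie above that band in PC3-PDEF and in or under it in PC3-SCR, ENO2, INSM1 and REST lie above it in both, and SYP, CHGA, CHGB and SCG2 lie under it in both.

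UCHL1 encodes a ubiquitin hydrolase abundant in neurons and neuroendocrine cells, where it is known as PGP9.5. Its signals were 10.22 and 10.08 in PC3-PDEF and 5.77 and 5.35 in PC3-SCR. Both PC3-PDEF arrays were high and both PC3-SCR arrays were under the background gauge, with no overlap. PC3-PDEF exceeded PC3-SCR by 4.59 ± 0.15 on the log2 scale (adjusted p = 4.7e-06, ± giving the standard error), and set against the gauge in place of the dim PC3-SCR signals the level was at least 18.1-fold higher in PC3-PDEF. UCHL1 was called under all 11 alternative settings. Its relatives had smaller differences. UCHL3, a related hydrolase found in most tissues, had signals of 10.39 and 10.44 in PC3-PDEF and 10.12 and 10.04 in PC3-SCR, a log2 fold change of 0.34 (adjusted p = 0.016, up to 0.101 under the alternatives). UCHL5, a hydrolase bound to the proteasome, did not pass (log2 fold change 0.24, 95% confidence interval 0.03 to 0.45, adjusted p = 0.0633), and BAP1 was not analysed here.

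NCAM1 encodes the neural cell adhesion molecule, the CD56 antigen used in pathology. It had signals of 7.40 and 7.73 in PC3-PDEF and 4.52 and 4.49 in PC3-SCR. As for UCHL1, both PC3-PDEF arrays were above background and neither PC3-SCR array was. PC3-PDEF was higher by 3.06 ± 0.12 on the log2 scale (adjusted p = 9.08e-06, ± giving the standard error), a level at least 3.01-fold higher in PC3-PDEF when the gauge stands in for the dim signals. NCAM1 was called in the 10 alternatives that tested it.

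Genes listed with NCAM1 went both ways. The list holds genes that work with NCAM1 or resemble it, and also DLL3. All 11 listed were measured, and 4 were higher, 3 lower and 4 not called, with a median log2 fold change of 0.02. The share called was 63.6%, beside 50.7% of all genes, of which 26.7% were higher and 24.0% lower, so calls in both directions are also what the whole table gave. CADM1, another immunoglobulin-type adhesion gene, had signals of 7.12 and 6.89 in PC3-PDEF and 4.93 and 4.41 in PC3-SCR, a log2 fold change of 2.34 (adjusted p = 0.0001). Among signalling partners, the kinase gene FYN rose by 0.70 and the receptor gene FGFR1 by 0.61 on the log2 scale, whereas the focal adhesion kinase gene PTK2 fell by 0.92. ST8SIA4, whose enzyme adds polysialic acid to NCAM1, fell to 5.75 and 5.80 in PC3-PDEF, against 6.74 and 7.04 in PC3-SCR (log2 fold change -1.12, adjusted p = 0.000369). NCAM2, the closest relative of NCAM1, had signals of 3.65 and 3.73 in PC3-PDEF and 5.36 and 5.18 in PC3-SCR, and GFRA1, a receptor for GDNF that NCAM1 can bind, had 4.89 and 4.97 in PC3-PDEF and 4.29 and 4.21 in PC3-SCR. These last 2 genes were called but were above background in no array, so the size of their change is not exact. L1CAM, CHL1, ST8SIA2 and the Notch ligand gene DLL3 were not called, and their log2 fold changes were between -0.15 and 0.07.

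ENO2, which encodes the neuron-specific enolase, ran opposite to UCHL1 and NCAM1. Its signals were 7.31 and 7.40 in PC3-PDEF and 8.80 and 8.67 in PC3-SCR, above background in all arrays and without overlap. On the log2 scale PC3-PDEF differed by -1.38 ± 0.09 (adjusted p = 5.4e-05, ± giving the standard error), a 2.60-fold lower level in PC3-PDEF, and it was called under all 11 alternatives. ENO1, the enolase of most tissues, also fell, with 12.51 and 12.49 in PC3-PDEF and 13.03 and 13.00 in PC3-SCR (log2 fold change -0.52, adjusted p = 0.00208). The muscle enolase gene ENO3 and ENO4 were above background in no array and were not called, with log2 fold changes of 0.15 (95% confidence interval -0.07 to 0.36) and -0.13 (95% confidence interval -0.32 to 0.07).

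**Figure D2:**
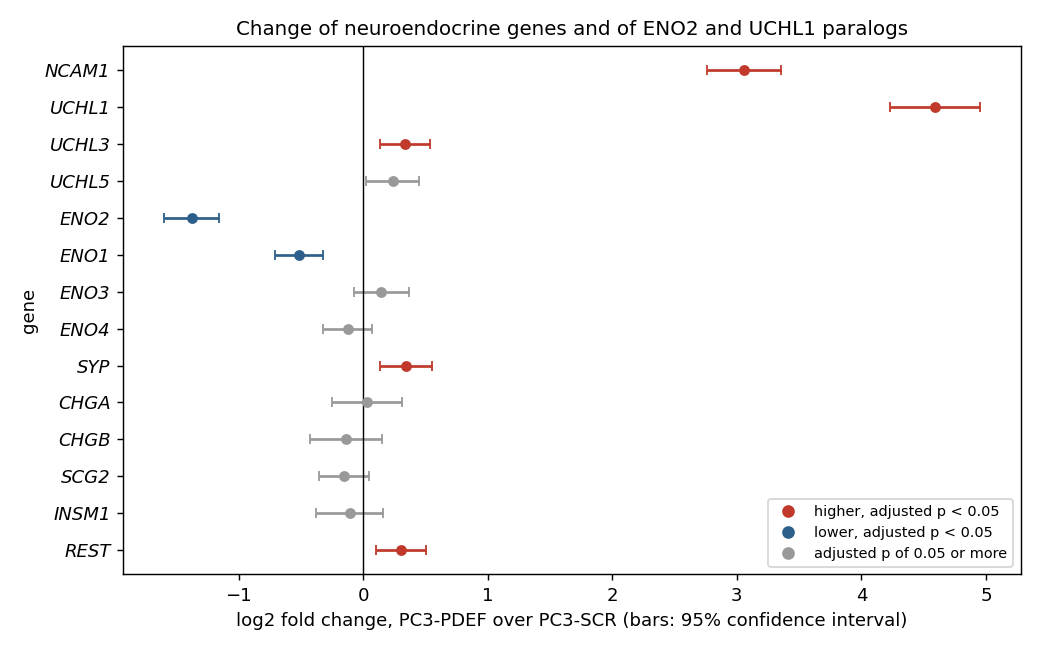
Log2 fold change of PC3-PDEF over PC3-SCR (horizontal axis) for the 9 neuroendocrine genes and the paralogs of ENO2 and UCHL1 (vertical axis), with the 95% confidence interval from limma as bars and 2 arrays per group. UCHL1 lies at 4.59 and NCAM1 at 3.06, ENO2 lies at -1.38, and the intervals of CHGA, CHGB, SCG2 and INSM1 span 0.

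The promoter sequences of UCHL1 and ENO2 are shown because these genes changed in opposite directions. They are the 250 bases before the RefSeq start site in the GRCh38.p14 build, plus strand in both cases, at chr4:41256678-41256927 for UCHL1 and chr12:6914330-6914579 for ENO2. Capitals mark GC boxes (GGGCGG on either strand) and TATA boxes (TATAAA on either strand).
UCHL1 promoter: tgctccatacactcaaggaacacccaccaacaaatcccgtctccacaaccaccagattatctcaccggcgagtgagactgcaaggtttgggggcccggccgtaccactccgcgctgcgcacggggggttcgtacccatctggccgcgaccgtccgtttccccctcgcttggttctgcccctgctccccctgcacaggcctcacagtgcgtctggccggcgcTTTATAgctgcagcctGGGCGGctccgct
ENO2 promoter: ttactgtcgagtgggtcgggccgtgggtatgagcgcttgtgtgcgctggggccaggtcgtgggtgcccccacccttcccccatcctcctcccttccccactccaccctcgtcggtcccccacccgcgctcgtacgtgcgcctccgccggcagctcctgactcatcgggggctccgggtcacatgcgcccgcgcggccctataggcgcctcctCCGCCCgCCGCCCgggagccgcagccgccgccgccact
The UCHL1 window held a TATA box on the other strand, beginning 29 bases before the start, and a GC box 13 bases before it. The ENO2 window held no TATA box and had GC boxes on the other strand 38 and 31 bases before the start. TATA boxes occurred in 10.7% and GC boxes in 42.6% of all 35116 windows of this length. The UCHL1 window had 20 CG pairs and the ENO2 window 30, against a median of 11 over all windows. Of the 9 genes 5 had windows in the RefSeq table, and REST had 2, giving 6 windows. No window of the 6 held CCGGAT, an ETS core that PDEF favours (5.85% of all windows), and CCGGAA, the usual ETS core (14.5%), occurred in 3, those of CHGA, SYP and 1 of REST. The left and right parts of the RE1 element that REST binds were searched as CAGCACC (6.16% of all windows), found in none of the 6, and GGACAGC (4.76%), found in 1 of the REST windows. These matches describe letters in short windows, and elements elsewhere in the genes were not searched.

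The vesicle markers gave low signals in both groups. CHGA, which encodes chromogranin A, the granin most used as a serum and tissue marker, had 4.18 and 3.97 in PC3-PDEF and 3.94 and 4.15 in PC3-SCR. The groups overlapped, and the log2 fold change was 0.03 (95% confidence interval -0.25 to 0.31, adjusted p = 0.852). CHGB, the gene of chromogranin B, had 3.92 and 4.03 in PC3-PDEF and 4.26 and 3.97 in PC3-SCR, again overlapping (log2 fold change -0.14, 95% confidence interval -0.43 to 0.15, adjusted p = 0.366). SCG2, which encodes secretogranin II, was the dimmest of the 9 probe sets, with 2.82 and 2.73 in PC3-PDEF and 2.91 and 2.95 in PC3-SCR (log2 fold change -0.16, 95% confidence interval -0.36 to 0.05, adjusted p = 0.173). Its arrays did not overlap, but the difference did not pass the test. A change in genes read this near background may not show on the array.

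SYP encodes synaptophysin, a membrane protein of small vesicles. Its signals were 5.04 and 4.98 in PC3-PDEF and 4.62 and 4.72 in PC3-SCR, without overlap and under the background gauge in every array. It was called higher (log2 fold change 0.34, standard error 0.09, adjusted p = 0.0167), but leaving out any 1 array ended the call (adjusted p from 0.0521 without PC3-SCR replicate 2 to 0.109 without PC3-PDEF replicate 1). The change of SYP therefore rests on small differences in a dim signal.

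Most other genes of dense-core vesicles did not pass the test, and those that did went both ways. The arrays measured 12 of 14 listed genes; 1 rose, 4 fell and 7 missed the threshold, with a median log2 fold change of -0.07. The share called was 41.7%, beside 50.7% of all genes. CPE, the carboxypeptidase that trims prohormones, had signals of 8.43 and 8.53 in PC3-PDEF and 6.66 and 6.67 in PC3-SCR (log2 fold change 1.82, adjusted p = 1.55e-05). PAM, which amidates peptide hormones, fell by 0.70 on the log2 scale (adjusted p = 0.00063), and PCSK1N, which encodes an inhibitor of prohormone convertase, fell by 0.36 (adjusted p = 0.0162, up to 0.125 under the alternatives). The other calls were lower signals of SCG5 and PTPRN, which were above background in both arrays of neither group. Leaving out any 1 array lowered the number of calls, here and over all genes. Among genes above the median level 2 were called higher and 2 lower of 4 tested, where 6937 of 9208 genes were called. Lower calls thus outnumbered higher ones in the values as deposited but not under this filter. CPE was called in all 11 alternatives.

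Genes of synaptic vesicles and exocytosis also went both ways. Measured were 20 of 21 listed, among which 3 rose, 8 fell and 9 missed the threshold, with a median log2 fold change of -0.18. The share called, 55%, is near the 50.7% of all genes. SV2A, a glycoprotein gene of secretory vesicles, had 6.62 and 6.64 in PC3-PDEF and 4.55 and 4.78 in PC3-SCR, with both PC3-SCR values under the background gauge (log2 fold change 1.97, adjusted p = 2.33e-05). STX1A, which encodes a plasma membrane SNARE of exocytosis, fell to 5.90 and 5.84 in PC3-PDEF, against 7.85 and 7.82 in PC3-SCR (log2 fold change -1.97, adjusted p = 1.02e-05). RAB3B, a GTPase gene of regulated secretion, fell by 1.38 on the log2 scale, its relative RAB3D fell by 0.50, and SYPL1, a widely expressed relative of SYP, fell by 0.68. Of those that rose, the synapsin gene SYN2 had a log2 fold change of 0.82 and the calcium sensor gene SYT1 of 0.59. SYN2 was under the gauge in both PC3-SCR arrays (4.97 and 5.35), and against the gauge its level was at least 1.003-fold higher. The calls of SYN2 and RAB3D were lost when either PC3-PDEF array was left out. With any 1 array left out there were fewer calls, in this list as over all genes.

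**Figure D3:**
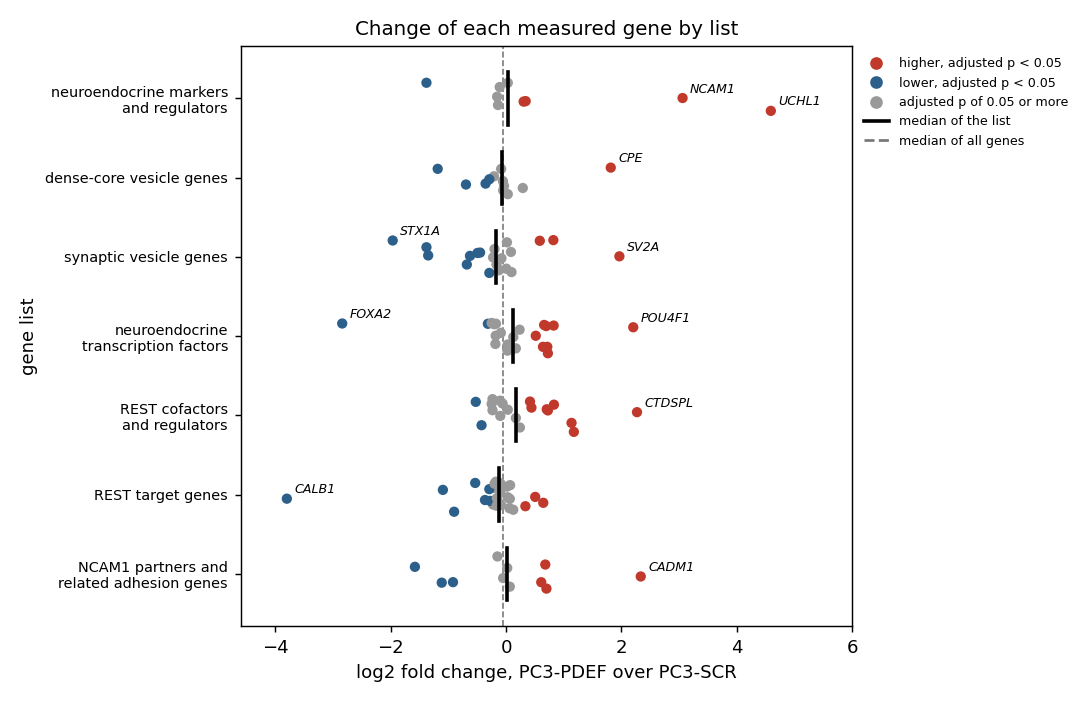
Log2 fold change of PC3-PDEF over PC3-SCR (horizontal axis) of each measured gene, by gene list (vertical axis), with 2 arrays per group, the median of each list (black line) and that of all genes (dashed, -0.05). Red points were called higher and blue points lower. List medians lie between -0.18 and 0.17, and single genes such as UCHL1 (4.59) and CALB1 (-3.80) stand far from them.

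INSM1 encodes a zinc finger repressor that drives neuroendocrine differentiation and is used as a nuclear marker. Its signals were 6.61 and 6.45 in PC3-PDEF and 6.53 and 6.75 in PC3-SCR. They were above background in all arrays and the groups overlapped, with a log2 fold change of -0.11 (95% confidence interval -0.38 to 0.16, adjusted p = 0.445). The interval leaves room for a modest change in either direction.

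Other transcription factor genes of neuroendocrine or small cell cancers were mostly dim. Measured were 21 of 23 listed, among which 8 rose, 2 fell and 11 missed the threshold, with a median log2 fold change of 0.13, and 14 of the 21 were above background in both arrays of neither group. The share called, 47.6%, is near the 50.7% of all genes, and 5 of the 10 calls were of genes not above background in both arrays of a group. FOXA2, a pioneer factor of endoderm and of neuroendocrine prostate tumours, fell to 6.07 and 6.11 in PC3-PDEF, against 8.93 in both PC3-SCR arrays (log2 fold change -2.84, standard error 0.08, adjusted p = 3.49e-06). POU4F1, a POU factor of sensory neurons, had 7.61 and 7.50 in PC3-PDEF and 5.26 and 5.44 in PC3-SCR, the PC3-SCR values under the gauge (log2 fold change 2.21, adjusted p = 1.4e-05). ISL1, a LIM homeodomain gene of endocrine and neural cells, had a log2 fold change of 0.72, ONECUT2 of 0.70 and POU3F2, which encodes the neural factor BRN2, of 0.52. These last 3 lost their calls in some alternatives, with adjusted p up to 0.052, 0.134 and 0.218. Among genes above the median level 2 were called higher and 1 lower of 5 tested, where 6937 of 9208 genes were called. Fewer were called with any 1 array left out, which also held over all genes. FOXA2 and POU4F1 were called in all 11 alternatives.

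REST encodes the repressor that silences neuronal genes outside the nervous system by binding RE1 elements, and its loss is known to release neuroendocrine genes in prostate cancer cells. Its signals were 8.80 and 8.86 in PC3-PDEF and 8.49 and 8.56 in PC3-SCR, above background throughout and without overlap. PC3-PDEF was higher by 0.31 ± 0.08 on the log2 scale (adjusted p = 0.0228, ± giving the standard error), a 1.24-fold higher level. The call was lost without each array in turn (adjusted p from 0.0657 without PC3-SCR replicate 2 to 0.115 without PC3-PDEF replicate 2), and after quantile normalization (adjusted p = 0.051).

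Genes whose proteins work with REST or set its level were nearly all above background and went both ways. Measured were 19 of 21 listed, among which 8 rose, 2 fell and 9 missed the threshold, with a median log2 fold change of 0.17, and 18 of them were above background in a group. The share called was 52.6%, beside 50.7% of all genes and 68.5% of the genes above background in a group. CTDSPL, a small phosphatase of a family that acts with REST, had 7.15 and 6.88 in PC3-PDEF and 4.82 and 4.67 in PC3-SCR (log2 fold change 2.27, adjusted p = 2.28e-05), a level at least 2.06-fold higher against the gauge. SIN3A, the corepressor scaffold that binds one end of REST, had 8.86 and 8.87 in PC3-PDEF and 7.70 and 7.76 in PC3-SCR (log2 fold change 1.14, adjusted p = 7.47e-05). Its paralog SIN3B fell by 0.43 (adjusted p = 0.00905), but that call was lost without each array in turn. The deacetylase gene HDAC2 rose by 0.83, and BTRC, whose ubiquitin ligase marks REST for degradation, by 1.18. PHF21A, a subunit of the CoREST complex, fell by 0.53, and the CoREST gene RCOR1, named after its values were seen, was not called (log2 fold change -0.24, adjusted p = 0.0625). SRRM4, a neural splicing factor gene that makes a truncated REST, was under the gauge in all arrays, with 4.33 and 4.32 in PC3-PDEF and 4.68 and 4.47 in PC3-SCR. Calls numbered 7 higher and 4 lower of 15 tested among genes above the median level, and 7 higher and 5 lower of 19 with arrays centred on gene medians. Over all genes these settings called 6937 of 9208 and 10073 of 18417. Omitting any 1 array gave fewer calls, both in the list and over all genes.

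Genes that REST is known to bind were mostly dim. Measured were 27 of 30 listed, and 19 of these were above background in both arrays of neither group. Among the 27, 3 rose, 7 fell and 17 missed the threshold, with a median log2 fold change of -0.13. The share called was 37.0%, beside 50.7% of all genes, and 7 of the 10 calls were of genes not above background in both arrays of a group. CALB1, which encodes the calcium buffer calbindin, had 7.24 and 7.52 in PC3-PDEF and 11.19 and 11.17 in PC3-SCR, the largest difference in the list (log2 fold change -3.80, standard error 0.11, adjusted p = 3.82e-06). CDK5R1, which encodes an activator of the neuronal kinase CDK5, rose by 0.51 (adjusted p = 0.00539), and the complexin gene CPLX1, which also stands in the synaptic list, fell by 0.29 (adjusted p = 0.0272). CALB1 was called in all 11 alternatives, CDK5R1 in 8 and CPLX1 in 4 of 10. Among genes above the median level 1 was called higher and 1 lower of 4 tested, where 6937 of 9208 genes were called. Omitting any 1 array left fewer calls in the list, as it did over all genes.

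**Figure D4:**
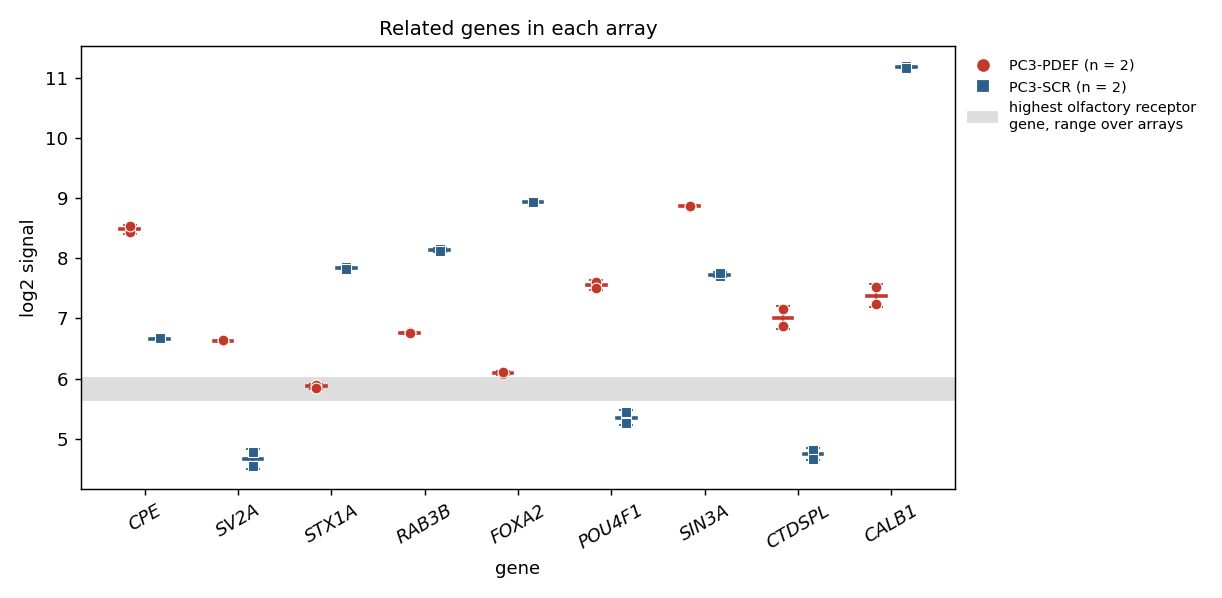
Log2 signal (vertical axis) of 9 genes of the vesicle, transcription factor and REST lists (horizontal axis) in the PC3-PDEF arrays (circles) and PC3-SCR arrays (squares), where lines mark group means and bars the SD (n = 2). The grey band is the highest olfactory receptor gene over the arrays. CALB1 lies at 7.24 and 7.52 in PC3-PDEF against 11.19 and 11.17 in PC3-SCR, and FOXA2 at 6.07 and 6.11 against 8.93 in both.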

How the data were processed

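RNA of PC3-PDEF and PC3-SCR cells was hybridized to Affymetrix HuGene-1.0-st-v1 arrays, 2 per group. The authors deposited log2 signals of 33297 probe sets, for which the submitters' processing notes name Transcriptome Analysis Console. Its version, the background correction and the scaling between arrays remain not given in the sources used here. Values ran between 1.68 and 13.88, from which log2 was taken as the scale. Array medians were 5.41 to 5.46, and the values were used as deposited. Scaling of this kind would hide a shift of all genes.

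Gene names came from the platform annotation, with symbols updated through the RefSeq gene table of GRCh38.p14. The 19460 with 1 symbol were kept, 1754 with several were left out and 12083 are unnamed here. The probe set with the highest mean stood for a gene. limma 3.58.1 in R 4.3.3 (lmFit, eBayes, two-sided, 2 residual and 4.23 prior degrees of freedom) compared PC3-PDEF with PC3-SCR over 18417 genes, with Benjamini-Hochberg adjustment and calls under 0.05. The script was tested on simulated data. The smallest two-sided p of an exact permutation test in this design is 0.333, and the number of arrays limits the precision.

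Members and gene lists were chosen with earlier results of these data known. All members are named, and of each longer list up to 4 called genes a direction with the largest change, above the olfactory gauge in both arrays of a group. SCG5, PTPRN, RCOR1 and SRRM4 are named outside this rule. Alternatives were quantile normalization, centring on medians, a filter on dim genes, an intensity trend, the mean of probe sets, a replicate block and leaving out each array. A level "at least" so many fold higher sets the mean of the bright group against the dim group's mean of, per array, the higher of the gauge and the gene's own signal.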

Additional observations from a re-analysis of the deposited data

How the results depend on the processing

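UCHL1, NCAM1 and ENO2 kept direction and call under each alternative that tested them. With the filter that dropped genes below the median level, 6937 of the 9208 tested genes were called, and fewer list genes remained. Under that filter 3 of 4 neuroendocrine genes and 5 of 8 synaptic vesicle genes were called. So were 3 of 5 transcription factor genes and 2 of 4 REST target genes. With the replicate number as a block (replicate block), 7974 genes were called against 9337, 6 REST target genes were called against 10, and SYP had an adjusted p of 0.0521. The deviations of same-numbered arrays had a correlation of 0.0221. This single value cannot show whether same-numbered arrays shared a culture, a preparation or a day. With each array omitted in turn, the calls were 5336 to 6460 over all genes, 3 neuroendocrine genes each time, 2 to 4 dense-core vesicle genes, 6 to 9 synaptic vesicle genes, 3 to 6 transcription factor genes, 6 to 8 REST cofactor genes and 4 REST target genes each time. In such a fit the lone array is assumed to vary like the other group.

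CHGA had a log2 fold change of -0.04 after each array was centred on the median of its named genes, a setting chosen after seeing the data, and of -0.075 (without PC3-PDEF or PC3-SCR replicate 1) to 0.135 with 1 array left out. CHGB had -0.285 to 0.005 (without PC3-SCR replicate 1). None of these passed the test. REST had an adjusted p of 0.0529 after that centring. This centring made 44.5% of the calls higher in PC3-PDEF, against 52.7% as deposited and 57.3% when centred on the median of all probe sets, and moved the median of all genes to -0.12, against -0.05. The causes were not tested. Signals under the background gauge, which hold for SYP, CHGA, CHGB and SCG2 in every array, limit what these data show about vesicle markers.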

Other observations

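The genes whose 4 signals, centred on their own mean, lay closest to those of the neuroendocrine genes were listed for the 3 members with the largest called changes. For UCHL1 they were IGF2BP1, which encodes an RNA-binding protein of fetal tissue, at a distance of 0.17 on the log2 scale over 4 arrays, and the anoctamin gene ANO5, at 0.18. IGF2BP1 had signals of 9.16 and 9.15 in PC3-PDEF and 4.74 and 4.51 in PC3-SCR. For NCAM1 they were PRXL2A, at 0.10, and the kinase gene WNK3, at 0.11. For ENO2 they were NRP2, a receptor gene for semaphorins and VEGF, at 0.04, and the metalloprotease gene ADAMTS20, at 0.05. NRP2 had signals of 6.77 and 6.82 in PC3-PDEF and 8.21 and 8.10 in PC3-SCR. With 4 arrays in 2 groups many genes share such a pattern.

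Measured genes next to UCHL1, NCAM1 and ENO2 in the RefSeq gene order, 3 on each side, were examined after the values were seen. Over all genes 50.7% were called by limma. Around UCHL1, 2 fell and 4 were not called. APBB2, which encodes an amyloid precursor binding protein, had 7.08 and 7.10 in PC3-PDEF and 8.93 and 8.85 in PC3-SCR, and LIMCH1, on the other side, had 5.35 and 5.30 in PC3-PDEF and 5.17 and 5.09 in PC3-SCR. Around NCAM1, 1 rose and 5 were not called, the one called being TTC12, with 5.87 and 5.59 in PC3-PDEF and 5.36 and 5.21 in PC3-SCR. The dopamine receptor gene DRD2 near NCAM1 had 6.03 and 5.88 in PC3-PDEF and 5.96 and 6.04 in PC3-SCR. Around ENO2, 1 fell and 5 were not called. The phosphatase gene PTPN6 was the one that fell, with 4.96 and 5.05 in PC3-PDEF and 6.10 and 6.27 in PC3-SCR, and the closer ATN1 had 7.25 and 7.19 in PC3-PDEF and 7.47 and 7.24 in PC3-SCR. No change of the neighbours was of the size of that of UCHL1 or NCAM1. The same cannot be said of ENO2, as PTPN6 had a log2 fold change of -1.18 beside -1.38 for ENO2.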
